A study of Homo sapiens with 6 samples.

Results

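The 41 genes described here build the sugar chain of N-linked glycoproteins, hand it to proteins and begin to trim it, and they are 41 of the 58395 genes in the tables. The list was drawn up around ALG5, which was chosen by its increase in these same libraries, to ask whether the other genes of the pathway share that increase. The libraries are from HCT116, a line of human colorectal cancer cells that carries a lentiviral hairpin. In 3 biological replicates the hairpin is non-targeting (shControl), and in 3 it is directed at STBD1 (shSTBD1), a protein that binds glycogen. Each arm has 1 hairpin, all cells are infected with a lentivirus and cultured under drug selection, and no library of uninfected cells is analysed here.

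N-glycans are not built on the protein itself. Enzymes of the endoplasmic reticulum assemble a branched chain of N-acetylglucosamine, mannose and glucose on the lipid dolichol, starting on the cytosolic face of the membrane and finishing in the lumen. The oligosaccharyltransferase then moves the finished chain to asparagines of new proteins, and glucosidases and a mannosidase trim it while the protein folds. Inherited loss of many of these enzymes causes congenital disorders of glycosylation.

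The libraries hold between 17689097 and 21668274 expected counts, the number of reads that RSEM assigns to the genes. Levels between libraries are given as CPM (counts scaled to the library total) after TMM scaling, and levels between genes as TPM (counts per effective length, with 1 fixed total per library). STBD1 itself is at 16.2, 15.7 and 14.4 CPM in shControl and at 11.6, 9.07 and 9.16 CPM in shSTBD1, a log2 fold change of -0.64 ± 0.098 (standard error) with an adjusted p = 2.9e-04 in edgeR's quasi-likelihood fit. The share of counts from the mitochondrial genome is 6.32% to 7.72% in shControl and 5.78% to 6.15% in shSTBD1. The summed CPM of 8 colon epithelium markers is 2673 to 2897 in shControl and 3149 to 3220 in shSTBD1, mostly from KRT8 and KRT18. KRT8, KRT18 and CDH1 are higher in shSTBD1, while CDX1 is at 0 and VIL1 near 0 in all libraries. EPCAM, CDX2 and KRT20 are not called, with log2 fold changes of 0.04, -0.07 and 0.66 (edgeR adjusted p = 0.42, 0.66 and 0.064). The summed CPM of 5 blood, vessel and stromal markers is 33.9 to 42.3 and 40.2 to 43.96, nearly all from COL1A1. PTPRC is at 0, and PTPRC, PECAM1 and COL3A1 hold too few counts to be tested. COL1A1 and ACTA2 are tested and not called. The part of these shifts in the results below was not tested. In bulk RNA, a change in the share of cells that express a gene and a change in RNA per cell cannot be told apart.

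An increase of the size of that of ALG5 is seen in no other gene of the list. Of the 41 genes, 40 hold enough counts to be tested, and 4 are higher and 3 lower in shSTBD1 at an adjusted p under 0.05 (edgeR's quasi-likelihood test, Benjamini-Hochberg over 15566 genes). The genes that are higher are ALG5, GANAB, OST4 and PMM2, and those that are lower are STT3A, NUS1 and MAN1B1. These 7 are 17.5% of the 40, beside 15.8% of all genes tested, and without ALG5 they are 6 of 39, or 15.4%. By direction, 8.22% of all genes are higher and 7.54% lower. The log2 fold change is above 0 in 21 of the 40 genes and below 0 in 19, and its median is 0.010, or 0.0067 without ALG5, beside 0.0023 over all genes. The median size of the change is 0.084 in the 40 genes and 0.110 over all genes. The median standard error is 0.054 and 0.068, so the 2 sizes are not measured equally closely.

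**Figure D1:**
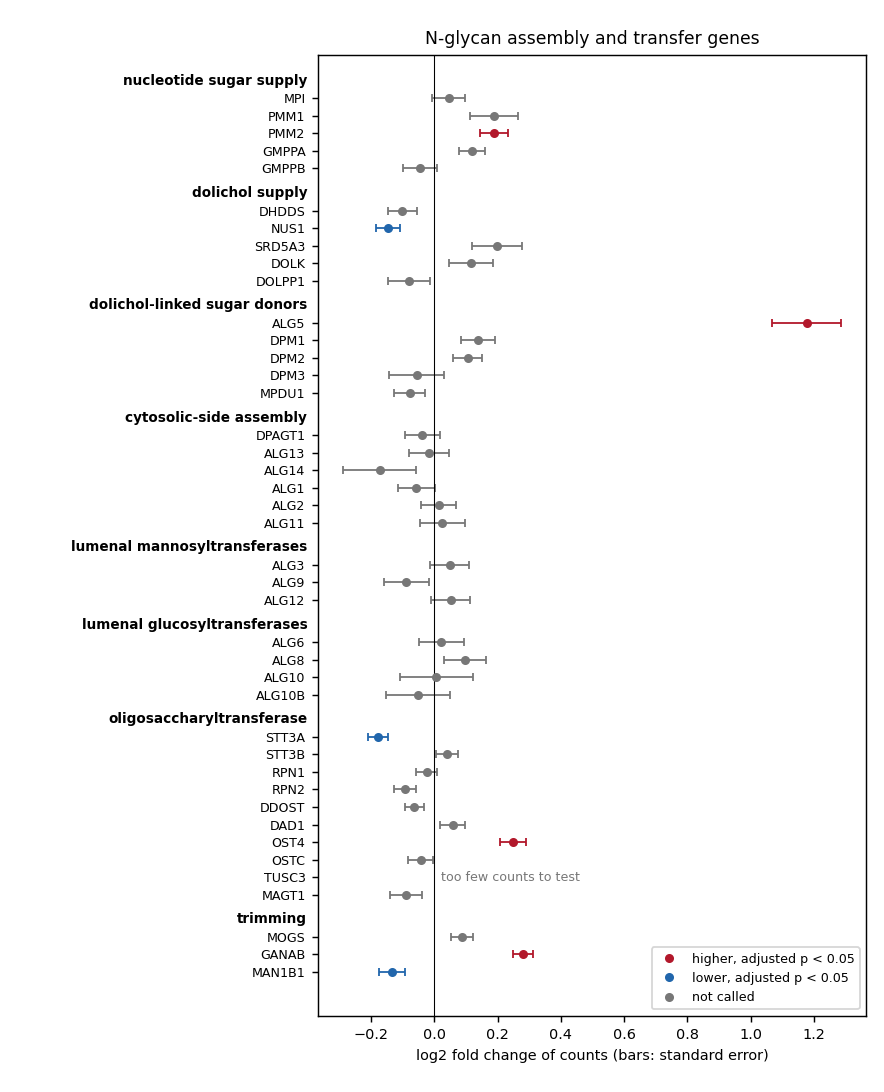
The log2 fold change of each gene in shSTBD1 against shControl is plotted by role, with bars for the standard error, red for higher and blue for lower at an adjusted p under 0.05, and grey for genes that are not called. ALG5 lies at 1.18, apart from the other 39 tested genes, which lie between -0.18 and 0.28.

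ALG5 (ENSG00000120697) moves glucose from UDP-glucose to dolichol phosphate, and the product is the glucose donor for the last steps of chain assembly. The gene lies at chr13:36949738-37000763 on the minus strand of GRCh38. It is at 6.70, 9.34 and 8.02 CPM in shControl and at 18.6, 19.7 and 16.2 CPM in shSTBD1. The lowest shSTBD1 library is well above the highest shControl library. The log2 fold change of 1.18 (standard error 0.109, n = 3 per group) is given as a description, since it chose the list. It spans 1.04 to 1.31 over 16 other ways of fitting the data, including leaving out each library. Across all tested genes, 64 have a change at least as large, ALG5 among them. In TPM it moves from 11.2 ± 2.12 to 23.9 ± 2.62 (SD, n = 3), which takes it from place 32 to place 25 among the 41 genes.

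The neighbours of ALG5 differ from it. Within 100 kb, 3 other genes are tested. EXOSC8, a subunit of the RNA exosome, is at 40.5, 40.0 and 43.2 CPM in shControl and 39.5, 42.3 and 43.5 CPM in shSTBD1, with a log2 fold change of 0.020 (edgeR adjusted p = 0.84). SMAD9, a signal transducer for BMP receptors, has a log2 fold change of -0.05 (edgeR adjusted p = 0.86). SUPT20H, a subunit of the SAGA complex, is at 53.1, 54.4 and 56.6 CPM and then at 59.5, 60.8 and 62.2 CPM. Its log2 fold change is 0.15 (edgeR adjusted p = 0.021), but it is -0.03 with offsets for effective length, and the call is lost in DESeq2 (adjusted p = 0.070) and without shControl 2, shSTBD1 2 or shSTBD1 3 (adjusted p = 0.054, 0.075 and 0.098). No exon of ALG5 overlaps that of another tested gene.

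ALG5, PMM2, STT3A and NUS1 carry in their annotated 3′ UTR a run of 7 bases that is also found in the stem of 1 of the hairpins. The libraries differ in which hairpin they express. Only the windows of these genes are shown, because they are the carriers that are called. The other carriers of either run are not called and are named below. The windows are 30 bases of the mRNA strand, 5′ to 3′, from GRCh38 and the GENCODE 44 canonical transcript, with the matching bases in capitals. The window of ALG5 is at chr13:36949887-36949916 on the minus strand, in exon 10 of 10, and that of PMM2 at chr16:8848951-8848980 on the plus strand, in exon 8 of 8. Both hold bases of the shControl hairpin. The windows of STT3A, at chr11:125622342-125622371 on the plus strand in exon 18 of 18, and of NUS1, at chr6:117708254-117708283 on the plus strand in exon 5 of 5, hold bases of the shSTBD1 hairpin.
ALG5: cttatgcttcaGTGTCACatttcatttcat
PMM2: aaacggttcatGTGTCACttttcaggatgt
STT3A: gtacattacttGATTTCTataaagaatctt
NUS1: aatgaataattGATTTCTtgataggtgttt
GTGTCAC was sought on the mRNA strand alone in 13034 tested genes with an annotated 3′ UTR. It is in 9.82% of them and in 6 of the 40 tested N-glycan genes, or 15%. The match in ALG5 was known from earlier results of these data before the search, and without ALG5 the run is in 5 of 39. The match in ALG5 begins at base 37 of a 3′ UTR of 204 bases, and all 9 annotated coding transcripts of ALG5 with a 3′ UTR hold it. Besides ALG5 and PMM2, the carriers are MPI, ALG11, ALG10B and MAGT1, whose log2 fold changes are 0.05, 0.02, -0.05 and -0.09, none of them called. The median over the 5 carriers other than ALG5 is 0.02. Over all genes, 18.5% of those with GTGTCAC and 8.47% of those without are higher in shSTBD1, and 8.36% and 8.53% are lower. Their median log2 fold changes are 0.020 with the run and 0.0026 without it.

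GATTTCT was sought in the same UTRs after the values had been seen, and overlaps no base of GTGTCAC in these genes. It is in 18.5% of all genes and in 10 of the 40, or 25%. STT3A and NUS1 are lower, and the other carriers, ALG1, ALG9, ALG10B, ALG11, ALG12, ALG14, SRD5A3 and STT3B, are not called. Over all genes, 11.5% of those with GATTTCT and 7.84% of those without are lower in shSTBD1, and 7.47% and 9.9% are higher. Their median log2 fold changes are -0.014 with the run and 0.0088 without it. Within the list, the median log2 fold change is -0.05 over the 10 carriers and 0.02 over the other 30 genes. Of the 3 remaining called genes, GANAB, OST4 and MAN1B1 hold neither run. The median 3′ UTR is 823.5 bases long in the 40 genes and 1308.5 bases in all genes, and a longer UTR has more room for a chance match. A match of 7 bases is a description of the sequence, and whether it plays a part in any change was not tested.

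**Figure D2:**
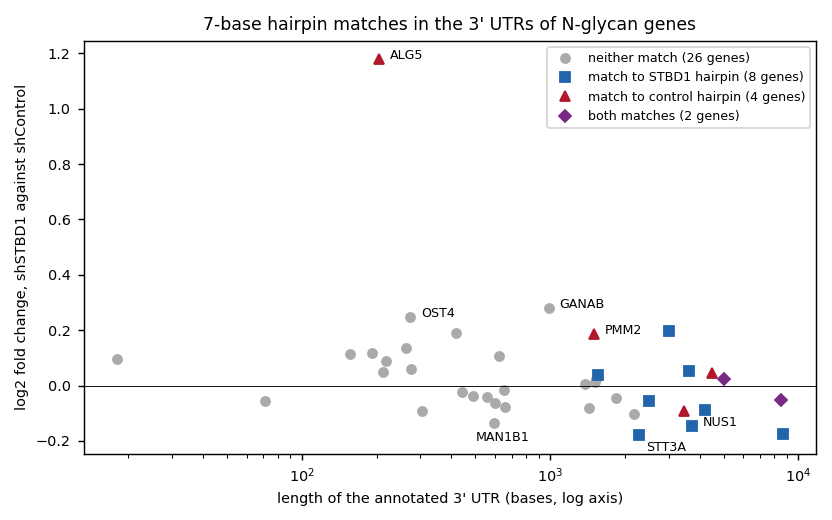
The log2 fold change of each of the 40 tested genes is plotted against the length of its annotated 3′ UTR on a log axis, with symbols for the hairpin whose 7 bases it holds. ALG5, with a 3′ UTR of 204 bases, stands alone at the top, and most other carriers have longer UTRs and lie near 0.

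The other donor genes make dolichol phosphate mannose or let it be used, and none of the 4 is called, beside 15.8% of all genes. DPM1, the catalytic subunit of the mannose donor synthase, is at 46.5, 53.9 and 48.7 CPM in shControl and at 53.1, 54.4 and 56.8 CPM in shSTBD1. The groups overlap, and the log2 fold change of 0.14 (edgeR adjusted p = 0.096) passes the threshold without shControl 2 (0.20, adjusted p = 0.017). DPM2, which supports the synthase in the membrane, has a log2 fold change of 0.11, DPM3, which tethers DPM1, one of -0.06, and MPDU1, which is needed to use the lipid donors, one of -0.08. The smallest adjusted p of these 3 is 0.13 (edgeR).

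None of the glucosyltransferases that use the product of ALG5 is called. ALG6, ALG8, ALG10 and ALG10B add the glucoses at the tip of the chain, and their log2 fold changes are 0.02, 0.10, 0.01 and -0.05, with no adjusted p under 0.36 (edgeR). All 4 overlap between the groups, where 15.8% of all genes are called and 33.6% do not overlap. ALG8 is at 27.0, 24.3 and 28.5 CPM in shControl and 28.2, 30.03 and 26.9 CPM in shSTBD1. ALG10 and ALG10B are close copies, and ALG10 is at 7.48, 7.18 and 6.16 CPM in shControl and 7.49, 6.85 and 6.66 CPM in shSTBD1. ALG10B is at 11.4, 14.7 and 14.5 CPM and then at 14.5, 12.4 and 12.4 CPM. In TPM, which divides by an effective length that depends on the isoforms RSEM assigns, ALG10B is at 3.38, 5.57 and 6.54 in shControl and 2.73, 3.18 and 1.85 in shSTBD1. The TPM groups do not overlap, whereas the CPM groups do, and with offsets for effective length the log2 fold change of ALG10B is -0.98 (edgeR adjusted p = 0.069).

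No gene of the steps that build the chain from N-acetylglucosamine and mannose is called. DPAGT1, which starts the chain, the ALG13 and ALG14 pair, which adds the next N-acetylglucosamine, and the mannosyltransferases ALG1, ALG2 and ALG11 act on the cytosolic face. None of these 6 genes is called, and none separates the groups. Over all genes, 15.8% are called and 33.6% separate the groups. Their log2 fold changes lie between -0.17 (ALG14) and 0.02 (ALG11), with a median of -0.03. ALG11 shares 35.2% of its exon bases with UTP14C on the same strand, so its counts depend on how RSEM divides reads. The lumenal mannosyltransferases ALG3, ALG9 and ALG12, at 0.05, -0.09 and 0.05, are not called either.

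The supply of GDP-mannose, the mannose donor on the cytosolic side, includes 1 gene that is higher. This is 20% of its 5 genes, beside 15.8% of all genes called and 8.22% called higher. PMM2 (ENSG00000140650) turns mannose-6-phosphate into mannose-1-phosphate, and its loss is the most common congenital disorder of glycosylation. It is at 47.3, 48.3 and 49.7 CPM in shControl and at 56.5, 54.1 and 55.0 CPM in shSTBD1. The groups do not overlap, and the log2 fold change is 0.19 ± 0.044 (standard error) with an edgeR adjusted p = 0.0078. PMM2 shares 7.28% of its exon bases with CARHSP1 on the opposite strand, whose log2 fold change is 0.20 (edgeR adjusted p = 0.014), and the sources do not say if reads were counted by strand. The call on PMM2 is lost with offsets for effective length (0.19, adjusted p = 0.15).

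PMM1, an isoenzyme of PMM2, is at 15.8, 17.3 and 16.9 CPM in shControl and 17.72, 20.7 and 18.6 CPM in shSTBD1. The groups do not overlap, and its log2 fold change of 0.19 equals that of PMM2 to 2 decimals but has a larger standard error, 0.076 (edgeR adjusted p = 0.10), and is 0.12 without shSTBD1 2. The log2 ratio of PMM2 to PMM1 is 1.54 ± 0.052 in shControl and 1.54 ± 0.146 in shSTBD1 (SD, n = 3, p = 0.90, two-sided exact permutation test). MPI, which makes mannose-6-phosphate from fructose-6-phosphate, has a log2 fold change of 0.05. GMPPB, the enzyme that makes GDP-mannose, is at 43.5, 44.001 and 40.2 CPM and then at 41.5, 43.4 and 38.8 CPM. GMPPA, its regulatory partner, is at 54.8, 55.2 and 56.0 CPM and then at 58.6, 60.1 and 61.5 CPM. GMPPA separates the groups, with a log2 fold change of 0.12 (edgeR adjusted p = 0.063), and GMPPB, at -0.05, does not. Of the 5 genes of this step, 3 separate the groups, or 60%, where 33.6% of all genes do. GMPPB shares 42.6% of its exon bases with AMIGO3 on the same strand, whose log2 fold change is -0.98 (edgeR adjusted p = 0.028).

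Among the 5 genes that supply dolichol, NUS1 is lower, or 20%, beside 15.8% of all genes called and 7.54% called lower. NUS1 (ENSG00000153989) and DHDDS form the cis-prenyltransferase that makes the polyprenol chain. NUS1 is at 126.0, 116.7 and 122.8 CPM in shControl and at 108.6, 113.8 and 107.6 CPM in shSTBD1. The groups do not overlap, but the highest shSTBD1 library is close to the lowest shControl library. Its log2 fold change is -0.15 ± 0.038 (standard error) with an edgeR adjusted p = 0.016. The call is lost without shControl 3, shSTBD1 1 or shSTBD1 3 (adjusted p = 0.056, 0.068 and 0.086) and with offsets for effective length (adjusted p = 0.11).

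DHDDS also separates the groups, at 44.1, 43.4 and 42.5 CPM against 40.7, 40.1 and 40.4 CPM, but is not called (log2 fold change -0.10, adjusted p = 0.15, edgeR). SRD5A3, which acts in turning polyprenol into dolichol, has a log2 fold change of 0.20 (edgeR adjusted p = 0.10), which is 0.10 without shSTBD1 2 and 0.44 with offsets for effective length, both uncalled. It is at 18.2, 16.9 and 17.9 CPM in shControl and at 19.1, 22.7 and 18.8 CPM in shSTBD1, so that shSTBD1 2 stands above the other libraries. DOLK, which phosphorylates dolichol, is at 0.12, and DOLPP1, which recycles dolichol pyrophosphate, at -0.08. Of the 5 genes of this step, 4 separate the groups, 2 upwards and 2 downwards, where 33.6% of all genes do.

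The oligosaccharyltransferase holds 1 gene that is higher and 1 that is lower. These are 22.2% of its 9 tested genes, beside 15.8% of all genes. STT3A (ENSG00000134910) is the catalytic subunit of the form that glycosylates proteins as they enter the endoplasmic reticulum, and STT3B that of the form that also acts afterwards. STT3A is at 161.7, 157.1 and 162.6 CPM in shControl and at 143.9, 143.3 and 138.3 CPM in shSTBD1. The groups do not overlap, and the log2 fold change is -0.18 ± 0.033 (standard error) with an edgeR adjusted p = 0.0015. STT3B is at 243.0, 228.3 and 237.8 CPM and then at 251.3, 233.8 and 243.9 CPM. Its groups overlap, and its log2 fold change is 0.04 (edgeR adjusted p = 0.50). The log2 ratio of STT3A to STT3B in CPM is -0.56 ± 0.026 in shControl and -0.78 ± 0.061 in shSTBD1 (SD, n = 3), and the groups do not overlap. The two-sided exact permutation test gives p = 0.10, the smallest that 3 libraries against 3 allow, and 0.40 after adjustment over the 4 gene pairs compared. With offsets for effective length the call on STT3A itself is lost (-0.16, adjusted p = 0.090).

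OST4 (ENSG00000228474), a very small subunit that holds STT3 in the complex, is at 53.6, 55.7 and 54.4 CPM in shControl and at 63.2, 65.2 and 66.0 CPM in shSTBD1. The groups do not overlap, and the log2 fold change is 0.25 ± 0.041 (standard error) with an edgeR adjusted p = 6.4e-04. OST4 shares 151 exon bases, 25.2% of its own, with AGBL5 on the opposite strand, whose log2 fold change is -0.19 (edgeR adjusted p = 0.073). The call on OST4 holds under each of the 16 alternatives.

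The subunits that both forms share are RPN1, RPN2, DDOST and DAD1, and OSTC belongs to the form with STT3A. Their log2 fold changes are -0.02, -0.09, -0.06, 0.06 and -0.04, and none is called. RPN2 and DDOST separate the groups. With STT3A and OST4, 4 of the 9 tested subunits do so, or 44.4%, beside 33.6% of all genes. RPN2 is called without shControl 2 (-0.12, adjusted p = 0.047) and DDOST without shControl 1 (-0.08, adjusted p = 0.020). MAGT1 and TUSC3 are alternative redox subunits of the form with STT3B. MAGT1 is at 71.2, 63.4 and 67.7 CPM in shControl and 67.2, 62.1 and 60.8 CPM in shSTBD1, with a log2 fold change of -0.09 (edgeR adjusted p = 0.24). TUSC3 is at 0.052 CPM in shControl 1 and at 0 in the other libraries, and is not tested.

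**Figure D3:**
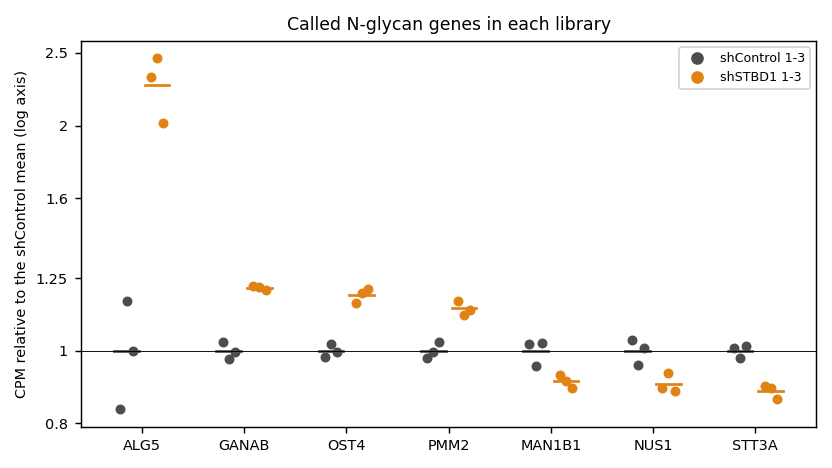
The CPM of the 7 called genes in each library is plotted relative to the gene's shControl mean on a log axis, with short lines for group means. The points of ALG5 in shSTBD1 lie at more than 2 times its shControl mean, and those of the other 6 genes lie much nearer to theirs, above it for 3 and below it for 3.

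Trimming is the one step in which all the listed genes separate the groups, and their directions differ. It holds only 3 genes, and 33.6% of all genes separate the groups. GANAB (ENSG00000089597) is the catalytic subunit of glucosidase II, which removes the inner glucoses and so times the binding of calnexin. It is at 475.7, 451.6 and 460.7 CPM in shControl and at 564.9, 562.8 and 557.7 CPM in shSTBD1. This is a log2 fold change of 0.28 ± 0.031 (standard error) with an edgeR adjusted p = 9.2e-06, and the call holds under each of the 16 alternatives. MOGS, glucosidase I, which removes the outermost glucose before glucosidase II acts, is at 85.0, 86.5 and 85.4 CPM and then at 90.3, 92.0 and 90.6 CPM. Its groups do not overlap, and its log2 fold change is 0.09 (edgeR adjusted p = 0.10).

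MAN1B1 (ENSG00000177239), a mannosidase that marks glycoproteins for disposal, is at 84.0, 78.5 and 84.4 CPM in shControl and at 76.4, 75.0 and 73.4 CPM in shSTBD1. The groups do not overlap, and the log2 fold change is -0.13 ± 0.040 (standard error) with an edgeR adjusted p = 0.033. This is the call that depends most on the fit. It is lost in DESeq2 (adjusted p = 0.071), with offsets for effective length (0.24), and without shControl 1, shControl 3, shSTBD1 1, shSTBD1 2 or shSTBD1 3 (0.0504, 0.12, 0.059, 0.10 and 0.14). Over the whole list, 16 of the 40 genes do not overlap between the groups, or 40%, and 15 of 39 without ALG5, or 38.5%, beside 33.6% of all genes. In the edgeR test, 2 of the 40, ALG5 and GANAB, have a p under 1e-5 before adjustment. Without ALG5, which chose the list, this is 1 of 39, beside 2.38% of all genes.

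The levels of the genes span more than 2 orders of magnitude in TPM and keep nearly the same order in both groups. In shControl the 5 highest are DDOST, OST4, DAD1, RPN1 and GANAB, while the oligosaccharyltransferase subunits MAGT1 and TUSC3 are at places 25 and 41. DDOST is at 249.6 ± 9.90 TPM, OST4 at 219.6 ± 10.9 and DAD1 at 204.8 ± 11.5 (SD, n = 3) in shControl, and the ranges of OST4 and DAD1 overlap. In shSTBD1, OST4 at 259.6 ± 1.43 TPM is ahead of DDOST at 234.5 ± 3.39, and their ranges do not overlap. GANAB is at 173.9 ± 2.30 TPM and then at 206.9 ± 5.12. DPM3, DPM1 and MPDU1 stand highest among the donor genes. At the low end are ALG14, ALG10 and ALG10B, at 1.79 ± 1.46, 4.20 ± 0.84 and 5.16 ± 1.62 TPM in shControl, whose ranges overlap in part. ALG5 at 11.2 TPM is close in shControl to DOLK at 10.5 and ALG6 at 10.4, whose ranges lie within that of ALG5. In shSTBD1 it is at 23.9 TPM, next to GMPPB at 22.3 and ALG1 at 21.2, and these ranges overlap as well.

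**Figure D4:**
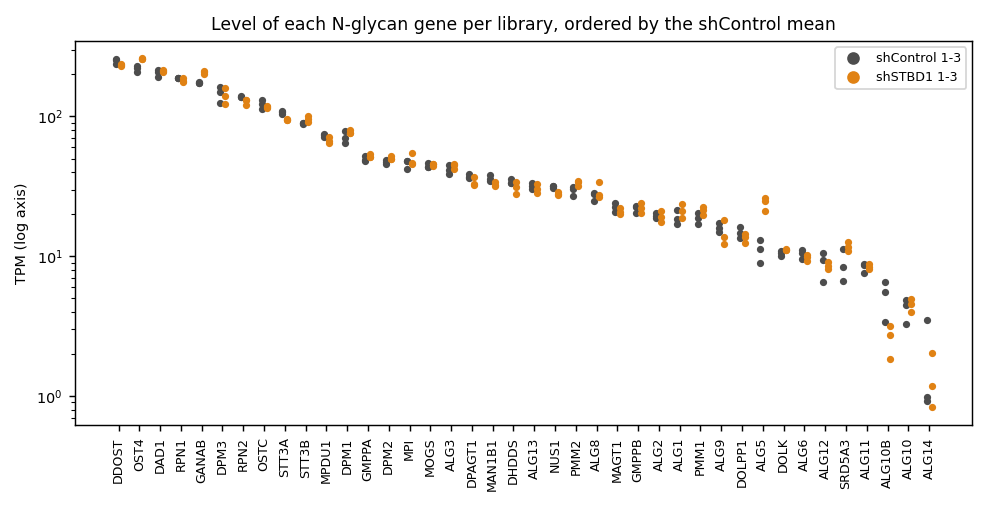
The TPM of 40 genes in each library is plotted on a log axis in the order of the shControl mean, in grey for shControl and orange for shSTBD1, and TUSC3, near 0, is left out. Most pairs of groups sit at the same height, ALG5 stands out upwards, and ALG10B lies lower in shSTBD1 on this scale.

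The steps beside the list were read from 32 further genes. Of these, 3 are higher and 6 lower in shSTBD1, or 28.1%, beside 15.8% of all genes (8.22% higher and 7.54% lower), and their median log2 fold change is -0.04. Higher are MLEC (0.28 ± 0.039, standard error, adjusted p = 1.2e-04, edgeR), a lectin that binds glucosylated chains next to the oligosaccharyltransferase, TMEM258, another of its subunits (0.28), and NGLY1, which strips N-glycans from misfolded proteins (0.26). MLEC is at 291.1 ± 17.9 CPM in the shControl libraries and 353.9 ± 7.88 in shSTBD1 (SD, n = 3).

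Lower are MGAT1 (-0.25) and MGAT2 (-0.30), which start the branches of complex N-glycans in the Golgi, UGGT1 (-0.22), which puts glucose back on misfolded glycoproteins, and EDEM3 (-0.22), a mannosidase of disposal. MGAT2 is at 50.5 ± 0.345 CPM in the shControl libraries and 41.01 ± 0.912 in shSTBD1 (SD, n = 3, adjusted p = 2.3e-04, edgeR). DPY19L1, a C-mannosyltransferase that uses dolichol phosphate mannose, is lower as well (-0.18). CANX, the chaperone calnexin, is named after its value was seen, with a log2 fold change of -0.12 (edgeR adjusted p = 0.041) that is not called without shControl 3, shSTBD1 1, shSTBD1 2 or shSTBD1 3 (adjusted p = 0.062, 0.12, 0.11 and 0.14). EDEM3 is not called without shSTBD1 2 (-0.17, adjusted p = 0.090), and with offsets for effective length it is at 0.05. With those offsets only MGAT2 of the 9 is called, at -0.31 (adjusted p = 0.021). PRKCSH, the partner subunit of GANAB in glucosidase II, has a log2 fold change of 0.08 (edgeR adjusted p = 0.11) and is also named after its value was seen. None of the 6 genes that supply UDP-sugars is called, beside 15.8% of all genes. The nearest to the threshold is UGP2 (0.13, edgeR adjusted p = 0.0502), whose groups do not overlap and which is named after its value was seen.

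**Figure D5:**
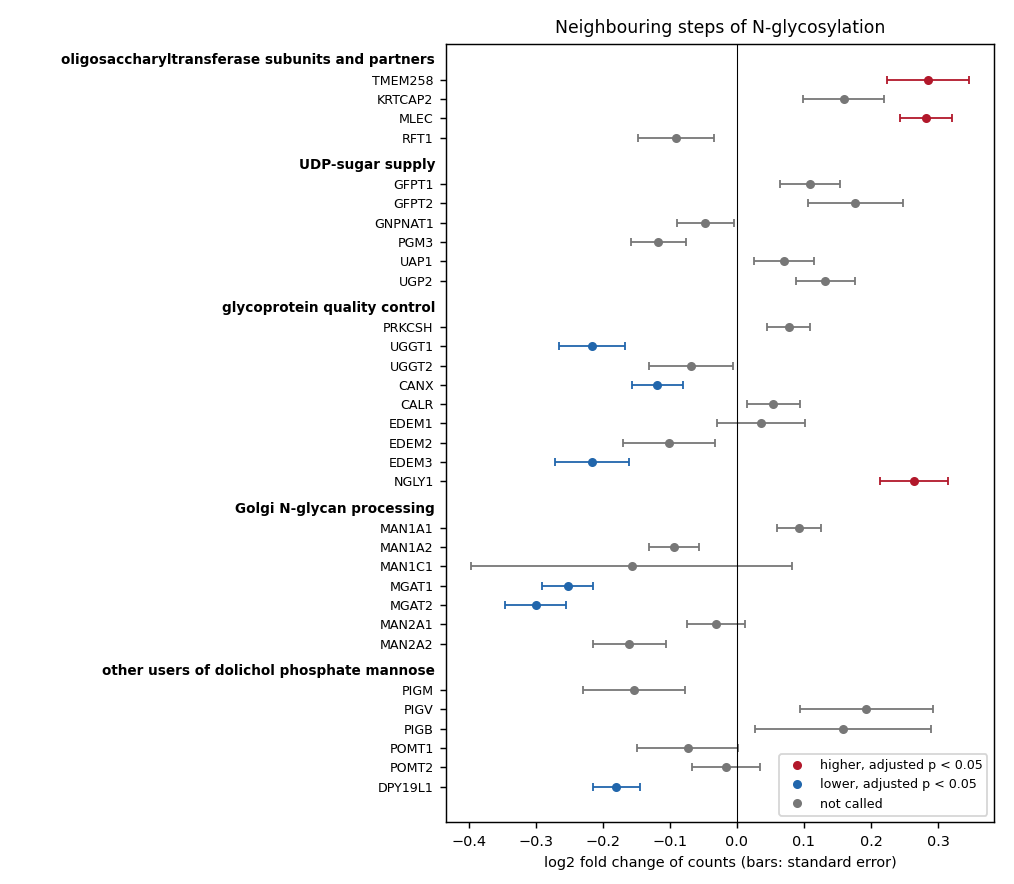
The log2 fold change of the 32 genes of neighbouring steps is plotted in the same way, with bars for the standard error. The 9 called genes lie between -0.30 (MGAT2) and 0.28 (TMEM258), all smaller in size than ALG5.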

How the data were processed

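RNA from 3 shControl and 3 shSTBD1 replicates of HCT116 is measured by RNA-seq. The authors remove adapter, poly-N and low-quality reads, align to Hg38 with STAR 2.7.1a and Ensembl gene models, and estimate abundance with RSEM 1.3.1. In addition, they count the reads of each gene with the R package GenomicAlignments. They deposited an expected count per gene, not normalized and not whole for 19.9% to 20.4% of genes above 0, and TPM, which the authors compute from gene length and read count. Recomputed from the expected count and effective length columns, TPM came within 1% of the deposited value for 99.99% or more of the genes at 1 TPM or more in each library.

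Genes are matched by Ensembl ID (57754 of 58395 have a symbol). Expected counts are rounded, filtered by filterByExpr (15566 genes), scaled by TMM and compared with glmQLFTest, the quasi-likelihood test of edgeR (version 4.0.16 in R 4.3.3), with no replicate term, adjusted by Benjamini-Hochberg over all tested genes. The methods state DESeq2 without a further term, which is an alternative here (DESeq2 1.42.0). That alternative uses the RSEM expected counts, and the paper does not say which counts its own DESeq2 test used. The scripts were tested on simulated data. Ratios of 4 paralogue or partner pairs are compared by a two-sided exact permutation test. 3′ UTRs and positions are from GENCODE 44 on GRCh38, a later annotation than the authors'. Standard errors are the size of the log2 fold change divided by the square root of edgeR's F statistic. The dispersion behind it draws on all genes as well as on the gene itself. SDs reflect the spread between these libraries, whose replicates the paper calls biological without further detail.

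The members, the gene lists and the tests were chosen with earlier results of these data known. Per-library values are given for called members and for pairs of paralogues or partners, and related genes are named when called, at most the 8 with the smallest p. The alternatives are DESeq2, upper-quartile factors, scaling by library size, no filter, at least 10 counts in every library, unrounded counts, offsets for effective length, limma 3.58.1 on log2(TPM + 1) and log2(TPM + 0.1), the replicate number as a block, and leaving out each library.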

Additional observations from a re-analysis of the deposited data

How the results depend on the processing

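The number of N-glycan genes higher in shSTBD1, the median log2 fold change of the list and the change of ALG5 stay near the reported value under all 16 alternatives, and ALG5, GANAB and OST4 are called in each. The number of genes lower is 0 with offsets for effective length, with limma on log2(TPM + 1) and with limma on log2(TPM + 0.1), and 1 to 4 when a library is left out, with 1 without shControl 3, shSTBD1 1 or shSTBD1 3. Of the related genes, 0 are higher and 1 is lower under those 3 settings, and 3 to 7 are higher when a library is left out, with 7 without shControl 1. Over all genes, 2453 are called, against 1690 in DESeq2 (of which 872 higher), 511 with offsets for effective length, 292 and 290 with limma on log2 TPM with 1 and 0.1 added, and 1409 to 2577 when a library is left out. The change of STBD1 is -0.54 and -0.65 in the 2 limma fits (adjusted p = 0.065 and 0.067). TPM and effective length carry RSEM's division of reads among isoforms into the gene value. Why the 3 settings that use length call fewer genes was not tested.

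Replicates with the same number have deviations from their group means that correlate at 0.071, 0.068 and -0.0084. Those with different numbers correlate at -0.074 to 0.010. Replicates 1 and 2 lie above this range, but all the correlations are small. The labels do not say that the numbers pair libraries, so they are not taken as pairs. With a replicate block, 4 N-glycan genes are higher and 3 lower, the same 7 genes, and 2579 of all genes are called.

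Genes that change sign are mostly uncalled and near 0. In the order offsets for effective length, limma with 1 added and limma with 0.1 added, ALG1 is at 0.176, 0.158 and 0.165, ALG2 at -0.0029, -0.013 and -0.014, ALG6 at -0.074, -0.075 and -0.081, ALG12 at -0.019, -0.0086 and -0.0067, and GMPPB at 0.038, 0.025 and 0.026. EDEM3, called in the main comparison, is at 0.051, 0.035 and 0.039, and SUPT20H, also called, at -0.026, -0.036 and -0.037. EXOSC8 is at -0.0056 and -0.0057 in the 2 limma fits. When a library is left out, the lowest and highest values are -0.026 and 0.046 for ALG2, -0.0030 and 0.102 for ALG3, -0.0039 and 0.050 for ALG6, -0.068 and 0.059 for ALG10, -0.162 and 0.015 for ALG10B, -0.0015 and 0.042 for ALG11, -0.059 and 0.052 for ALG13, -0.164 and 0.010 for DPM3, -0.0025 and 0.077 for MPI, and -0.0088 and 0.055 for EXOSC8.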
